A study of Mus musculus with 6 samples.

Results

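One liver tumor of the series, tumor 3 of mouse 2, carried the messenger RNA of Cps1, the mitochondrial enzyme of the first step of the urea cycle, which the other tumors held near 0. It was compared with the 4 other tumors that kept a hepatocyte profile, namely tumors 2 and 3 of mouse 1 and tumors 1 and 2 of mouse 2, called the comparison tumors here. Genes were selected on the measured values themselves: a gene was described as higher or lower where its level in tumor 3 of mouse 2 lay outside the range of all 4 comparison tumors and differed from their mean by at least 3-fold on the scale of TPM + 1. TPM is a level per transcript length, scaled to the same total in every library. Of 32895 autosomal genes, 68 were higher (0.207%) and 277 were lower (0.842%), so 345 genes were selected. Among the 11001 autosomal genes that averaged 1 TPM or more over the 5 tumors, 61 were higher (0.554%) and 277 lower (2.52%). These counts follow from the selection, and 1 tumor against 4 has no replicate check, so the values below are a description of these libraries and no test was made.

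The series holds 6 tumors of 1 condition, 3 from each of 2 mice, each measured in 1 messenger RNA library. All mice were male, on a C57BL/6 background and of CMRtdT genotype: 1 allele of Ctnnb1 loses exon 3 when Cre acts and then encodes a β-catenin that is not degraded, a MUP-uPA transgene injures the hepatocytes that express it, and a Cre-dependent tdTomato reporter at the ROSA26 locus marks recombined cells. AAV8-TBG-Cre, a virus that expresses Cre from a hepatocyte promoter, was injected into the tail vein at 8 weeks of age, a diet rich in fat had begun when the mice were 6 weeks old, and the tumors were cut out 6.5 months after the injection. No untreated liver and no tumor of another genotype was among the libraries, so the groups share every allele and treatment, and the comparison is between tumors only. The tumors of 1 mouse share an animal, and whole pieces of tumor were extracted, so other cell types of the liver contribute RNA.

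Hepatocytes divide their work along the liver lobule. Cells near the portal vein make urea and glucose and break down amino acids, while cells around the central vein, where endothelial cells release Wnt ligands, make glutamine and carry out much of the detoxification. Active β-catenin drives the central program, and its feedback inhibitors, Axin2, Nkd1 and Notum among them, are widely used as readouts of Wnt signaling. NRF2, a transcription factor that KEAP1 normally keeps low, controls glutathione synthesis, NADPH supply and quinone reduction, and is often active in hepatocellular carcinoma.

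The hepatocyte label held for tumor 3 of mouse 2. Of 25 genes of hepatocyte identity (secreted plasma proteins and liver transcription factors) none was selected in either direction, and their median log2 difference was -0.06. Here and below, the median of a list, and the number of its genes above or below all 4 comparison tumors, cover its members that averaged 1 TPM or more over the 5 tumors, whereas the counts of selected genes cover all measured members. Each count of selected genes is to be read beside the 0.554% higher and 2.52% lower among the 11001 genes. Alb, which encodes albumin, was at 13112 TPM against 16079, 16603, 8348 and 8517 TPM in the comparison tumors, given here and below in the order tumor 2 of mouse 1, tumor 3 of mouse 1, tumor 1 of mouse 2 and tumor 2 of mouse 2. Apoa2, an apolipoprotein of high-density lipoprotein, was at 26263 TPM against 17697, 18456, 16095 and 12726 TPM, so Apoa2 lay above the range and Alb within it. Tumor 1 of mouse 1, which the selection left out, held Alb at 702 TPM and is given only as an added value.

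The libraries held 19130532 to 27681766 estimated counts, with the lowest number in tumor 3 of mouse 2. Levels there were shifted as a whole: over the 11001 genes the median log2 difference between the tumor and the mean of the comparison tumors was -0.42, 18.1% of the genes had a difference above 0, and 55.8% lay below all 4 comparison tumors. Mitochondrially encoded genes took 16.0% of its counts, against 8.27 to 18.4% in the comparison tumors, and the 10 most abundant genes took 32.4% of its TPM against 21.3 to 35.6%. With TPM rescaled without mitochondrially encoded genes the median log2 difference was -0.34. With counts scaled by TMM factors it was 0.01. Such factors are chosen to level the typical gene between libraries, so this value cannot show where the shift came from. The part of the 10 most abundant genes in the shift was not tested. On the TPM scale used here a log2 difference near -0.42 was that of a typical gene, and list medians are given with and without this shift. Where the median ratio of each tumor was set to 0 instead, 130 genes were higher and 180 lower (41.9% higher among the selected genes, against 19.7%). The 2 comparison tumors of mouse 1 resembled each other (r = 0.987 across genes on log2 of TPM + 1) more than the other pairs, and their counts differed by 3.21 times sampling noise, against 15.7 to 70.4 times for the other pairs. The labels do not say whether they are pieces of 1 tumor, so an SD with n = 4 can rest on fewer independent tumors. With these averaged into 1 sample, 70 genes were higher and 256 lower.

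Cps1 (chr1:67122426-67231267 on GRCm38) was at 112 TPM in tumor 3 of mouse 2, a level resting on 10919 estimated counts (95% counting interval 110.1 to 114 TPM). The comparison tumors held 0.849, 0.721, 1.32 and 0.501 TPM, with a mean of 0.849 ± 0.348 TPM (SD, n = 4). On the scale of TPM + 1, which understates folds of low genes, the tumor was 62.0-fold higher, and the nearest comparison tumor lay 5.61 log2 units below it. All Cps1 reads fell on a single annotated transcript, and tumor 1 of mouse 1 held 1.60 TPM. Tumor 3 of mouse 2 was thus the 1 tumor of 6 with more than a trace of Cps1.

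**Figure D1:**
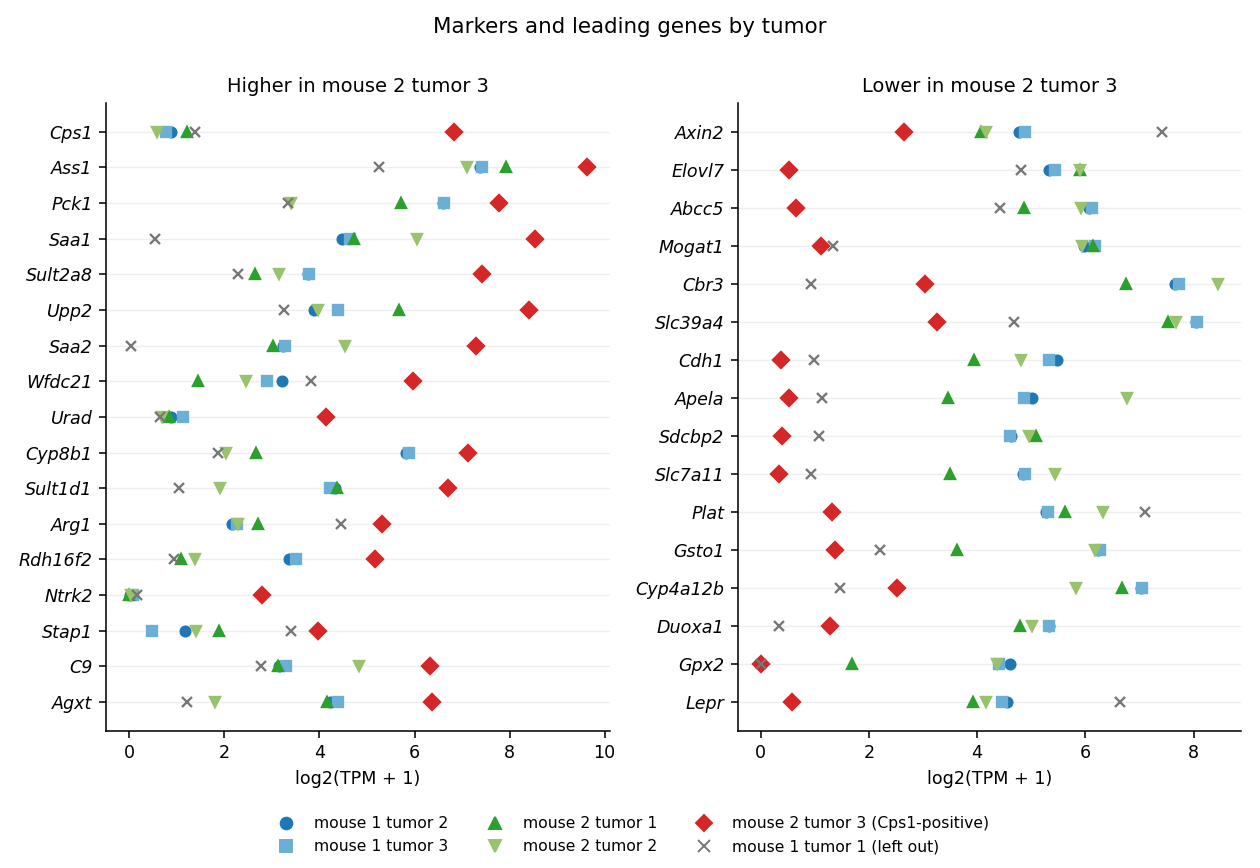
Level of the 5 marker genes and of the leading selected genes in each of the 6 tumors, as log2(TPM + 1), with genes higher in tumor 3 of mouse 2 on the left and lower on the right. Each point is 1 library; the diamond of tumor 3 of mouse 2 lies outside the range of the 4 comparison tumors for each gene, from 112 TPM against at most 1.32 TPM for Cps1 to 0.429 TPM against at least 39.2 TPM for Elovl7, whereas tumor 1 of mouse 1 (cross) falls on either side.

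Among the 17 genes of the urea cycle and nitrogen handling, 3 were higher and none lower (against 0.554% higher among the 11001 genes). The median log2 difference was 0.29 (0.71 relative to the median gene). Ass1, the cytosolic enzyme that joins citrulline and aspartate (chr2:31470270-31520670), was at 787 TPM against 165, 171, 242 and 136 TPM, and was 4.48-fold higher. Arg1, the arginase that releases urea, was at 38.6 TPM against 3.47, 3.83, 5.51 and 3.90 TPM, a 7.72-fold difference. That both genes lay above every comparison tumor follows from the selection. The spread among the comparison tumors was 45.1 TPM for Ass1 and 0.908 TPM for Arg1 (SD, n = 4). Otc, the mitochondrial enzyme between Cps1 and Ass1 in the cycle, lies on the X chromosome, outside the selection, and was looked up after its values were seen: it was at 131 TPM against 26.9, 26.6, 45.4 and 13.5 TPM. Asl, the lyase that follows Ass1, was at 169.8 TPM against 125, 126, 119 and 98.2 TPM, above the range with a log2 difference of 0.54. Nags, whose product is the required activator of Cps1, was at 18.9 TPM against 25.7 to 33.98 TPM, and Slc25a13, the aspartate carrier, at 3.54 TPM against 5.54 to 14.6 TPM. The 5 enzymes of the cycle were thus all above the comparison tumors, whereas the activator synthase and the carrier lay below them, and those last 4 genes were named after their values were seen.

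Of 33 genes of amino acid catabolism, 3 were higher and none lower (against 0.554% higher among the 11001 genes). The median log2 difference was 0.30 (0.72 relative to the median gene). Agxt, which detoxifies glyoxylate in peroxisomes, was at 81.2 TPM against 17.7, 19.8, 16.8 and 2.51 TPM. Gnmt, the methyltransferase that consumes S-adenosylmethionine, was at 381 TPM against 146, 152, 64.2 and 68.0 TPM. Bhmt, which makes methionine from homocysteine, was at 511 TPM against 161, 163, 129 and 212 TPM. They were 6.58-fold, 3.80-fold and 3.11-fold higher, and Agxt varied most among the comparison tumors, with little of it in tumor 2 of mouse 2. Without that tumor the log2 difference of Agxt was 2.11 in place of 2.72. Bhmt stood at 1.52, under the 3-fold limit, without tumor 1 of mouse 2. The 3 abundant genes Oat, Cdo1 and Tdo2, named after their values were seen, had log2 differences of -0.52, -0.45 and -0.55, near the median gene at -0.42. Of the 28 genes at 1 TPM or more, 12 lay above all 4 comparison tumors and 7 below, against 8.29% and 55.8% of the 11001 genes. The list thus did not move as 1 block.

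Gluconeogenesis did not share a direction. Pck1, the cytosolic enzyme that commits oxaloacetate to glucose synthesis (chr2:173153073-173159274), was at 218 TPM against 96.6, 97.7, 51.2 and 9.63 TPM. It was 4.56-fold higher than the mean, with the 2 comparison tumors of mouse 1 at less than 1.2 log2 units below it and tumor 2 of mouse 2 far lower. Food had been withdrawn some hours before the livers were taken, from all mice alike. Without tumor 2 of mouse 2 its log2 difference was 1.46 in place of 2.19, and against the tumors of mouse 1 alone it was 1.16. Igfbp1, a secreted binding protein of insulin-like growth factors that fasting induces, went the other way at 256 TPM against 826, 834, 1043 and 733 TPM (3.32-fold lower). G6pc1, the last enzyme of glucose release, was just outside the limit and is named for that: 43.8 TPM against 127, 125, 134 and 140.02 TPM, a log2 difference of -1.57. In all, 1 of 23 genes of this list was higher, 1 lower, and the median log2 difference was -0.35 (0.08 relative to the median gene).

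The periportal list had 26 genes, of which 5 were higher (Cps1, Ass1, Arg1, Pck1 and Serpina1c) and 1 was lower. Among the 11001 genes 0.554% were higher and 2.52% lower. Over its 21 genes at 1 TPM or more the median log2 difference was 0.60 (1.02 relative to the median gene), and 12 of the 21 lay above all 4 comparison tumors, against 8.29% of the 11001 genes. The list overlaps the urea cycle list in Cps1, Ass1, Arg1, Otc, Asl and Gls2, so the lists are not separate observations. Serpina1c, a paralog of the alpha-1 antitrypsin gene, was at 1017 TPM against 533, 582, 228 and 143 TPM. Its log2 difference was 1.30 without tumor 2 of mouse 2 and 1.52 without tumor 1 of mouse 2, both under the limit, and reads can be shared among the Serpina1 copies. Cdh1, which encodes E-cadherin and is more abundant on periportal hepatocytes, was the exception: it was at 0.288 TPM against 43.7, 39.2, 14.4 and 27.0 TPM, a 23.0-fold lower level. Several classical periportal genes were close to 0 in all 5 tumors. Cyp2f2, the P450 most used as a periportal marker, was at 0.205 TPM against 0.241 to 0.910 TPM, Hal, the histidine lyase, at 0.110 TPM against 0.101 to 0.123 TPM, and Gls2, the liver glutaminase, at 0.317 TPM against 0.319 to 0.604 TPM. These 3 genes, chosen after their values were seen, were no higher in the Cps1-positive tumor than in the highest of the comparison tumors.

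Serum amyloid genes were among the largest differences. Saa1, an acute phase protein carried on high-density lipoprotein (chr7:46740497-46743181), was at 371 TPM against 21.1, 23.8, 25.5 and 65.7 TPM and 11.9-fold higher, and 359.6 TPM of it came from its protein-coding transcript. Its neighbor Saa2 was at 156 TPM against 8.38, 8.71, 7.08 and 22.2 TPM and 13.7-fold higher. In both, tumor 2 of mouse 2 was the highest comparison tumor and tumor 1 of mouse 1 the lowest of all 6, at 0.462 TPM and 0.0278 TPM. The genes are close copies, so reads can be shared between them.

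The 250 bases before a start site of each gene of the pair are shown because Saa1 and Saa2 lie next to each other on chromosome 7, in opposite orientation, and were high together. They come from RefSeq on GRCm38.p6 and read 5′ to 3′ along the gene; Saa1 is on the minus strand (chr7:46742981-46743230) and Saa2 on the plus strand (chr7:46751583-46751832). The start site that the RefSeq promoter table uses for Saa1 lies inside the gene span given above, so 201 of the 250 bases of this window fall within that span. Capitals mark a match to TTGCNNAA, the letters of a binding motif of C/EBP factors, searched on both strands.
Saa1: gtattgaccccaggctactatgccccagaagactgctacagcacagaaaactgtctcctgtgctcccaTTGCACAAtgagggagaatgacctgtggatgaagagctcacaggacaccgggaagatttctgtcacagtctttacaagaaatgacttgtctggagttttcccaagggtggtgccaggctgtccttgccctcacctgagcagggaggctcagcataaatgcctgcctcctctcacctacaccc
Saa2: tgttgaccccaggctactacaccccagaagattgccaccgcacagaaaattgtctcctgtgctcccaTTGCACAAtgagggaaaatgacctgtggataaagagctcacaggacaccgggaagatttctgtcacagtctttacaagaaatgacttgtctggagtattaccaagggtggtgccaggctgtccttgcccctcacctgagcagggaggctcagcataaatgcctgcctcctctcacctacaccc
The match starts 182 bases before the start in Saa1 and 183 in Saa2, and 13 single-base changes turn one window into the other, so 94.8% of the 250 bases are unchanged. Of 27025 genes with such a window, 10.8% hold these letters, as did 7 of the 41 higher genes with a window (17.1%) and 23 of the 206 lower genes with one (11.2%). A match describes the letters only and was not tested as a binding site.

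The rest of the acute phase list moved less. Of 37 measured genes, 4 were higher and none lower (against 0.554% higher among the 11001 genes). The median log2 difference was 0.27 (0.69 relative to the median gene). Of the 36 at 1 TPM or more, 16 lay above all 4 comparison tumors and 7 below, against 8.29% and 55.8% of the 11001 genes. Apcs, serum amyloid P, was at 382 TPM against 105, 104, 101 and 146 TPM. Hamp, the hormone hepcidin that limits iron export, was at 280.3 TPM against 57.1, 62.8, 118 and 155 TPM, with both comparison tumors of mouse 2 above both of mouse 1. Without either tumor of mouse 1 the log2 difference of Hamp fell under the limit, to 1.41 and 1.46, and against the other tumors of mouse 2 it was 1.05. Hp, Orm1 and Lcn2, also acute phase genes and named after their values were seen, had log2 differences of 0.37, 0.30 and 0.32. These were smaller than those of the Saa pair and Apcs. Of 34 complement and coagulation genes 1 was higher, C9, a component of the membrane attack complex, at 79.1 TPM against 7.82, 8.81, 7.78 and 27.6 TPM. Cxcl1, a chemokine that draws neutrophils, was the only selected gene among 22 of hepatocyte inflammatory signaling, at 55.1 TPM against 5.65, 4.98, 16.7 and 19.5 TPM. Both were 6.60-fold and 5.11-fold higher, and in both tumor 2 of mouse 2 was the nearest.

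On the scale of TPM + 1 the largest fold after Cps1 among the named genes belonged to Sult2a8, a sulfotransferase of bile acids, at 169.6 TPM against 12.6, 12.7, 5.29 and 7.89 TPM (16.9-fold higher). Upp2, a uridine phosphorylase, was at 338 TPM against 13.8, 20.02, 50.1 and 14.7 TPM, and was 15.2-fold higher. Urad, which acts in the breakdown of uric acid, was at 16.5 TPM against 0.842, 1.21, 0.788 and 0.609 TPM. For these 3 genes the lowest gap to a comparison tumor was 2.73 log2 units. Cyp8b1, which sets the cholic acid share of bile acids, was at 139 TPM against 55.8, 57.8, 5.35 and 3.08 TPM. The mice differed for Cyp8b1: against the tumors of mouse 1 alone the log2 difference was 1.28, under the limit, and against the other tumors of mouse 2 it was 4.79. Rdh16f2, a retinol dehydrogenase, had the same split, at 35.1 TPM against 9.24, 10.4, 1.12 and 1.60 TPM. Sult1d1, a sulfotransferase of catechols, was at 103 TPM against 19.1, 17.5, 19.7 and 2.77 TPM, with tumor 2 of mouse 2 apart.

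Ntrk2, Wfdc21 and Stap1 encode proteins outside liver metabolism. Ntrk2, the receptor of brain-derived neurotrophic factor, was at 5.90 TPM against 0.0180, 0.0489, 0 and 0.0255 TPM. Tumor 1 of mouse 2 had 0 counts, and against a floor of 3 counts there (0.0455 TPM) the Cps1-positive tumor was at least 129.6-fold higher. Wfdc21, a small secreted protein with a whey acidic protein domain, was at 61.4 TPM against 8.21, 6.41, 1.72 and 4.51 TPM, and Stap1, a signaling adaptor, was at 14.7 TPM against 1.26, 0.391, 2.70 and 1.65 TPM. Fabp2, the intestinal fatty acid binding protein, was at 1041 TPM against 131, 130.1, 249 and 173 TPM and 6.28-fold higher, while Fabp1, the liver form and the most abundant gene of the lipid droplet list, was at 6359 TPM against 5448 to 6978 TPM. The most abundant higher gene, named for that after its values were seen, was Apoa4, an apolipoprotein of triglyceride-rich particles, at 4173 TPM against 526, 511, 896 and 1300.1 TPM.

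Sex-dependent genes were split as well. Of 35 male-biased or growth hormone genes 3 were higher, namely Selenbp2, Mup2 and Mup12, and 2 were lower, namely Cyp4a12b and Bcl6. Mup2 fell under the limit without tumor 2 of mouse 1, at 1.56, and without tumor 1 of mouse 2, at 1.43, and Bcl6 without either tumor of mouse 1, at -1.46 and -1.48. Selenbp2 was at 19.8 TPM against 4.59, 3.54, 1.66 and 1.74 TPM. Cyp4a12b, a fatty acid hydroxylase of male liver, was at 4.76 TPM against 129, 131, 101 and 56.0 TPM, 17.3-fold lower, while its paralog Cyp4a12a was at 89.3 TPM against 31.5 to 140.2 TPM. Of 29 female-biased genes Slc22a27 and Cyp3a41a were higher and Cyp2a4 lower. Cyp2a4 was at 45.8 TPM against 704, 691, 48.6 and 486 TPM, so tumor 1 of mouse 2 nearly shared the low level. Cyp3a41a and Mup12 rested on low levels of 3.12 TPM and 2.53 TPM: each had 0 counts in 3 comparison tumors, and against floors of 3 counts the tumor was at least 28.7-fold higher for Cyp3a41a and at least 8.91-fold higher for Mup12. Genes of the Mup, Cyp2a, Cyp3a and Cyp4a families have near copies and can share reads.

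**Figure D2:**
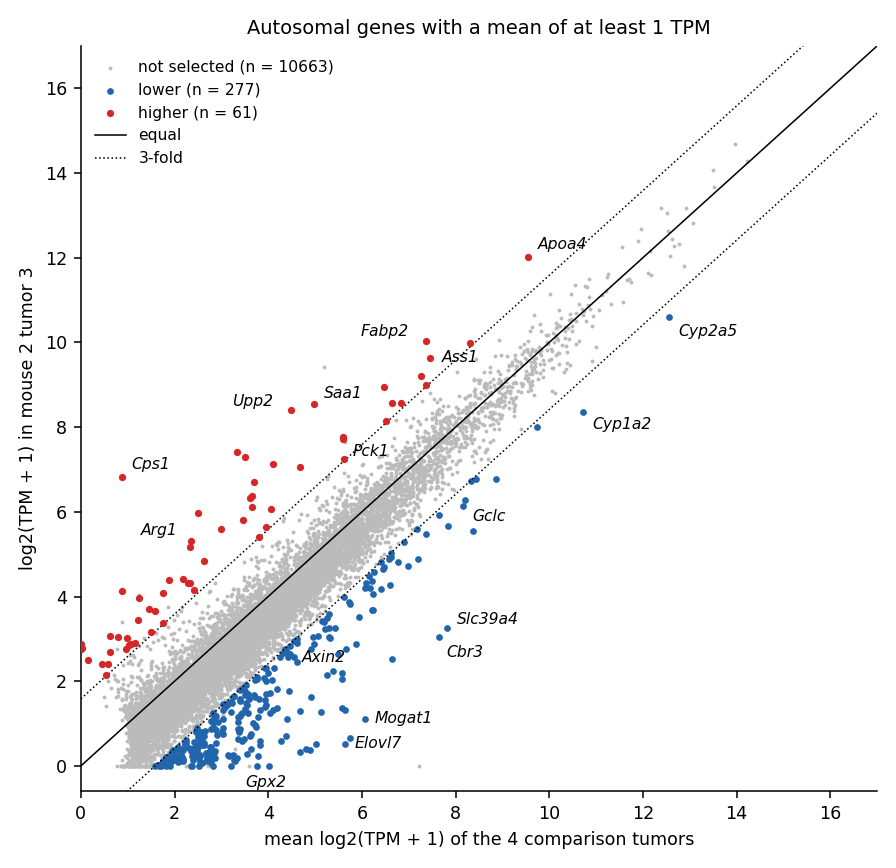
Level of 11001 autosomal genes in tumor 3 of mouse 2 (vertical axis) against the mean of the 4 comparison tumors (horizontal axis), both as log2(TPM + 1), 1 point a gene. The solid line marks equal levels and the dotted lines a 3-fold difference; 61 higher genes lie above and 277 lower genes below, and most other points sit under the solid line, as the median difference of -0.42 states.

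A minority of the Wnt targets were lower by 3-fold in the Cps1-positive tumor, while most of those at 1 TPM or more lay below all 4. Of 24 Wnt feedback and general target genes, 6 were lower and none higher (against 2.52% lower among the 11001 genes), 18 of the 21 at 1 TPM or more lay below all 4 comparison tumors (against 55.8% of the 11001 genes), and the median log2 difference was -1.11 (-0.69 relative to the median gene). Axin2, the scaffold of the complex that degrades β-catenin (chr11:108917828-108950783), was at 5.26 TPM against 26.4, 28.6, 15.8 and 16.9 TPM, 3.55-fold lower. Nkd1, an inhibitor of Dishevelled, was at 11.9 TPM against 100.04, 105, 45.5 and 60.1 TPM, 5.75-fold lower. Notum, a secreted enzyme that inactivates Wnt ligands, was at 17.4 TPM against 95.1, 101, 59.5 and 45.7 TPM, 3.95-fold lower. For all 3 the tumors of mouse 1 were the highest, and those of mouse 2 lay between them and the Cps1-positive tumor. Lgr5, the R-spondin receptor, was at 1.27 TPM against 6.87, 6.91, 6.05 and 5.27 TPM, and the transcription factors Lef1 and Sox9 were at 0.148 TPM and 0.106 TPM against 2.32 to 3.75 TPM and 2.20 to 3.27 TPM. Tumor 1 of mouse 1 exceeded all others for Axin2, Nkd1, Notum and Lef1, at 170.3 TPM, 924 TPM, 1822 TPM and 103 TPM.

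How many of these genes met the 3-fold limit depended on the scale. Against the other tumors of mouse 2 only, 1 Wnt gene was lower by 3-fold, against the tumors of mouse 1 only, 11 Wnt genes were, and with the median ratio set to 0, 3 were. Axin2 had log2 differences of -1.47 against the other tumors of mouse 2, -2.19 against mouse 1 and -1.43 with the median set to 0. Its sign against either mouse follows from the selection, which required it to lie below every comparison tumor. Ctnnb1 itself, named after its values were seen, was at 91.0 TPM against 168, 180.5, 134 and 147 TPM, a log2 difference of -0.77. The deleted exon cannot be seen in gene levels, so whether all cells of the tumor carried the allele was not tested.

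**Figure D3:**
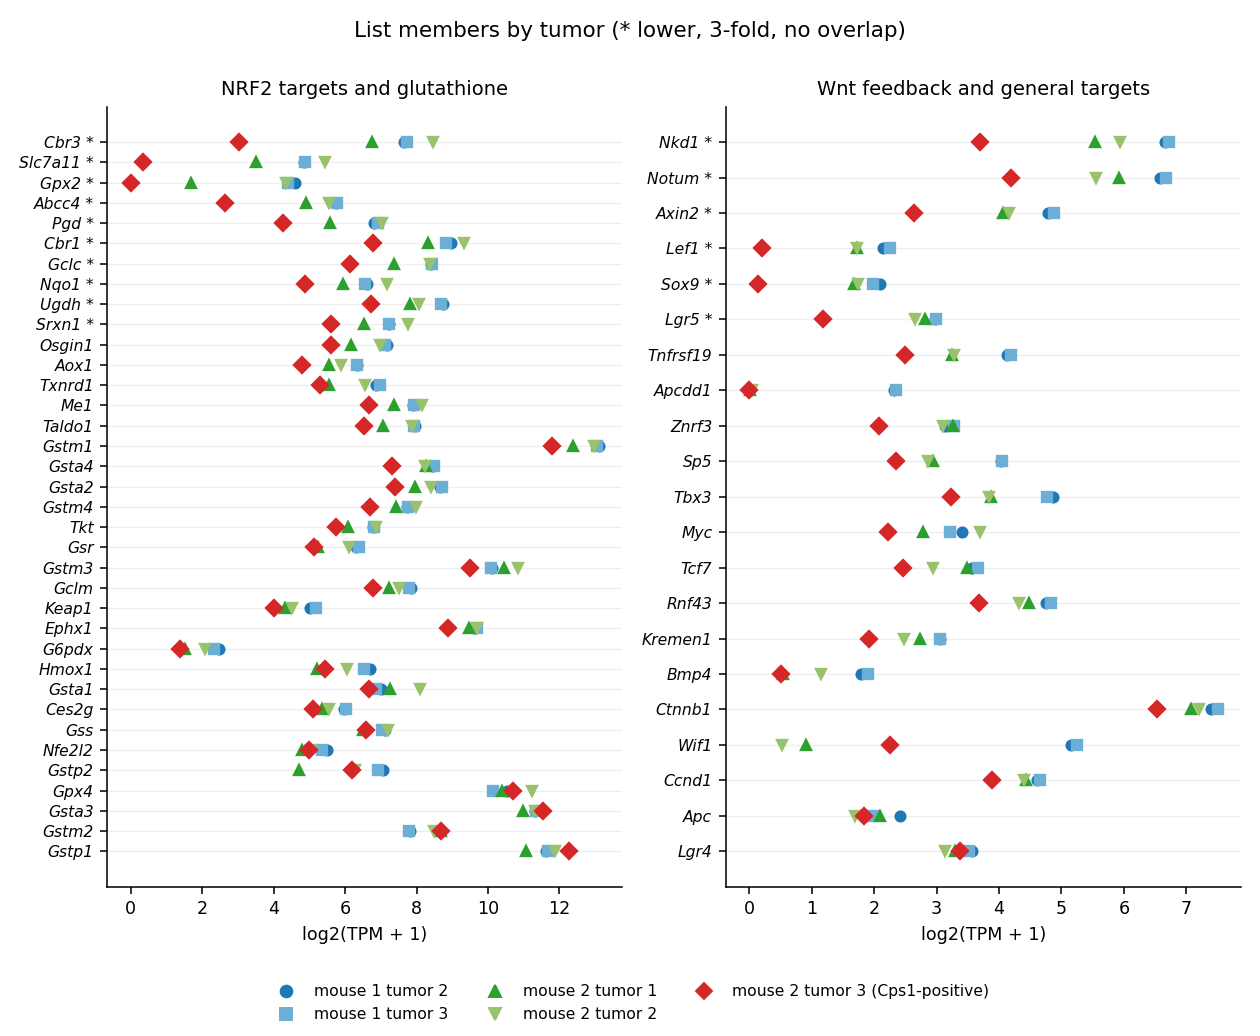
Level of each member of the NRF2 and Wnt lists in tumor 3 of mouse 2 (diamond) and the 4 comparison tumors, as log2(TPM + 1), ordered by the difference; genes below 1 TPM on average are left out and asterisks mark the 10 and 6 genes that were lower by 3-fold without overlap. The diamond is the leftmost point for most genes of both lists, and at the bottom of the NRF2 list Gstp1 is highest in this tumor.

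The pericentral list was mixed. Of 29 genes, 6 were lower and none higher (against 2.52% lower among the 11001 genes). The median log2 difference was -0.53 (-0.11 relative to the median gene), so the median of the list lay close to the typical gene. Cyp1a2, which metabolizes caffeine and other aromatic amines, was at 327 TPM against 1593, 1713, 1490.4 and 1976 TPM, 5.13-fold lower. Cyp2a5, a coumarin hydroxylase, was at 1562 TPM against 6717, 6748, 4525 and 6263 TPM, 3.83-fold lower. Slc1a4, a neutral amino acid carrier, was at 7.16 TPM against 41.1, 43.2, 30.4 and 43.3 TPM, and Car2, a carbonic anhydrase, was at 31.6 TPM against 101, 91.2, 102 and 95.9 TPM. Car2 fell under the limit without tumor 2 of mouse 1, at -1.58, and without tumor 1 of mouse 2, at -1.57. The remaining 2 were Axin2 and Lgr5. By contrast Glul, the glutamine synthetase used as a marker of active β-catenin in liver, was at 4197 TPM against 8365, 8760.5, 4356 and 4358 TPM, and Cyp2e1, the ethanol-inducible P450, was at 4978 TPM against 8422, 9001, 5329 and 4285 TPM. Both, named after their values were seen, stayed abundant, and Glul lay just under the 2 other tumors of mouse 2. With the median ratio set to 0, 2 of the pericentral genes were lower by 3-fold. Cyp1a1, the neighbor of Cyp1a2 on chromosome 9, was also lower, at 0.547 TPM against 4.13 to 6.06 TPM.

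By number, NRF2 targets had the most lower genes of any list, though the lists differ in length. The median log2 differences of the Wnt and macrophage lists, -1.11 and -1.26, were lower than that of the NRF2 list. Of 36 genes of NRF2 and glutathione, 10 were lower and none higher (against 2.52% lower among the 11001 genes), 28 of the 36 lay below all 4 comparison tumors (against 55.8%), and the median log2 difference was -1.03 (-0.60 relative to the median gene). Nqo1, the quinone reductase, was at 28.7 TPM against 97.6, 93.1, 60.5 and 143 TPM. Gclc, the catalytic subunit of the first enzyme of glutathione synthesis, was at 69.8 TPM against 338, 346, 164 and 333 TPM. Slc7a11, the cystine carrier that feeds it, was at 0.261 TPM against 27.9, 28.5, 10.4 and 42.4 TPM and was 20.2-fold lower. In these genes and in those that follow, tumor 1 of mouse 2 was the lowest of the comparison tumors. Cbr3 and Cbr1, carbonyl reductases next to each other on chromosome 16, were at 7.22 TPM and 108 TPM against 200.3, 211, 107 and 350.0 TPM and 499, 456, 319.9 and 639 TPM. Pgd, which yields NADPH in the pentose phosphate pathway, was at 18.2 TPM against 112, 121, 47.1 and 130.3 TPM, and Abcc4, an export pump for conjugates, was at 5.29 TPM against 52.9, 53.3, 28.8 and 45.7 TPM. All 4 lay below the lowest comparison tumor by at least 1.3 log2 units. Srxn1, which restores peroxiredoxins, was at 47.4 TPM against 148, 148, 91.6 and 215 TPM, at the limit of the selection (3.00-fold). Gpx2, a glutathione peroxidase, had 0 counts in the Cps1-positive tumor against 23.4, 20.2, 2.21 and 19.5 TPM. A floor of 3 counts allows up to 0.18 TPM there, so the mean of the comparison tumors was at least 90.8-fold higher. Ugdh, which makes the sugar donor of glucuronidation, was at 105 TPM against 426, 413, 224 and 269.7 TPM. Of these 10 genes 3 fell under the 3-fold limit when 1 comparison tumor was left out. Nqo1 stood at -1.48 without tumor 2 of mouse 2, Ugdh at -1.46 and -1.48 without either tumor of mouse 1, and Srxn1 at -1.57, -1.57 and -1.39 without either of these or tumor 2 of mouse 2, all as log2 differences. Nqo1 and Ugdh also fell under it with the median ratio set to 0, at -1.24 and -1.14, and with TMM factors, at -1.20 and -1.07.

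Few members of the list went the other way: 2 of the 36 lay above all 4 comparison tumors, against 28 below. Gstp1 and Gsta3, glutathione transferases named after their values were seen, were at 4907 TPM and 2987 TPM against 2157 to 3723 TPM and 2012 to 2589 TPM, above the comparison tumors. Nfe2l2, which encodes NRF2, was at 30.8 TPM against 26.5 to 44.3 TPM, and Keap1 was at 15.03 TPM against 18.9 to 35.1 TPM. With the median ratio set to 0, 6 of the list were lower by 3-fold and with counts scaled by TMM factors 5 were. With tumor 1 of mouse 1 added to the comparison tumors 2 were lower, since that tumor held even less of most of them, such as 0.910 TPM of Cbr3 and 14.1 TPM of Nqo1. Low levels of these genes were thus found in 2 of the 6 tumors.

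The window before Ugdh is shown as the printed example of a lower NRF2 gene whose promoter holds the antioxidant response element core TGACNNNGC, searched on both strands and marked in capitals (RefSeq, GRCm38.p6, chr5:65435843-65436092, minus strand, 5′ to 3′ along the gene).
Ugdh: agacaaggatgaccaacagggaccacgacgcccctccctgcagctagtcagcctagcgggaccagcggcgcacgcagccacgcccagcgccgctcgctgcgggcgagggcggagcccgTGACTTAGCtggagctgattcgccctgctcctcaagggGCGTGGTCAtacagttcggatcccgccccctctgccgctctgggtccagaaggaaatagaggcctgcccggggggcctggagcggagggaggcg
The matches start 132 and 94 bases before the start site, the second on the opposite strand. Of the 27025 windows 11.5% hold these letters. Among the NRF2 genes, 2 of the 9 lower genes with a window held them (22.2%), and 5 of the 23 with a window that were not selected (21.7%), so the letters in these 250 bases did not separate the genes that were lower from those that were not. Over the whole selection, 34 of the 206 lower genes with a window held them (16.5%) and 2 of the 41 higher genes (4.88%). The TCF/LEF letters ATCAAAG stood in 5 of the 206 (2.43%) and 2 of the 41 (4.88%) windows, against 3.72% of all windows.

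On the same scale the largest fold among the named lower genes was that of Elovl7, an elongase of long fatty acids, at 0.429 TPM against 39.2, 42.6, 58.8 and 58.8 TPM (35.0-fold lower). Mogat1, a monoacylglycerol acyltransferase, was at 1.16 TPM against 61.9, 71.3, 69.9 and 60.7 TPM (30.9-fold lower). Slc39a4, an importer of zinc, was at 8.54 TPM against 263, 265, 184 and 202 TPM (23.8-fold lower). In these 3 genes the comparison tumors of both mice were close to each other, and the nearest lay 4.82, 4.84 and 4.28 log2 units above the Cps1-positive tumor. Mogat1 was also low in tumor 1 of mouse 1, at 1.54 TPM, whereas Elovl7 was at 27.0 TPM there.

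Abcc5, an export pump for cyclic nucleotides, was at 0.573 TPM against 66.2, 68.3, 28.0 and 59.4 TPM, which gives 33.99-fold, but most of the level in the comparison tumors fell on 2 short transcripts with a retained intron. Its protein-coding transcript was at 0.428 TPM against 9.94, 11.03, 5.89 and 8.86 TPM, and with protein-coding transcripts only the log2 difference was -2.82 in place of -5.09. Apela, a peptide hormone of the apelin receptor, was at 0.440 TPM against 31.4, 28.2, 10.05 and 108 TPM. Sdcbp2, a scaffold protein related to syntenin, was at 0.320 TPM against 23.8, 23.3, 32.8 and 30.0 TPM. Plat, the tissue plasminogen activator, was at 1.48 TPM against 37.6, 38.5, 48.1 and 79.3 TPM, and at 136 TPM in tumor 1 of mouse 1. Tumor 2 of mouse 2 held the most Apela and Plat of the comparison tumors. Gsto1, a glutathione transferase of the omega class, was at 1.58 TPM against 74.4, 76.4, 11.4 and 71.3 TPM, with tumor 1 of mouse 2 apart. Duoxa1, the maturation factor of the hydrogen peroxide-producing enzyme Duox1, was at 1.41 TPM against 39.0, 39.2, 26.9 and 31.4 TPM, and Duox1 itself, its neighbor on chromosome 2 and named for that, was at 0.0485 TPM against 3.41 to 5.99 TPM. Lepr, the leptin receptor, was at 0.500 TPM against 22.4, 21.0, 14.2 and 16.9 TPM, and at 99.0 TPM in tumor 1 of mouse 1. Apart from Abcc5 and Duox1, these 6 genes were each lower by at least 12.9-fold.

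Genes of lipid and bile acid handling were lower in small numbers. Of 31 genes of fatty acid oxidation and PPARα targets 3 were lower and none higher (against 2.52% lower among the 11001 genes). Their median log2 difference was -0.53 (-0.11 relative to the median gene), again near that of the typical gene. Ehhadh, a peroxisomal enzyme of β-oxidation, was at 109 TPM against 461, 459, 273 and 239 TPM, and its log2 difference fell under the limit without either tumor of mouse 1, at -1.50 and -1.51. Ucp2, an uncoupling protein of the mitochondrial membrane, was at 49.9 TPM against 266, 277, 195 and 187 TPM, and Slc27a1, a fatty acid transporter, at 0.198 TPM against 15.3, 17.3, 3.12 and 5.52 TPM. Lpl, lipoprotein lipase, was at 13.7 TPM against 76.99, 77.8, 46.3 and 25.5 TPM, so the lipid droplet list of 19 genes had Fabp2 higher and Lpl and Mogat1 lower. Among 22 bile acid genes Cyp8b1 was higher and Slc10a1 and Abcc4 lower. Slc10a1, the main importer of bile acids, was at 15.8 TPM against 169, 176, 18.7 and 52.6 TPM, with tumor 1 of mouse 2 only 0.23 log2 units above. Against the other tumors of mouse 2 the log2 difference of Slc10a1 was -0.95, and without tumor 1 of mouse 2 it was -2.81, in place of -2.16. None of 21 genes of fatty acid synthesis and none of 22 of cholesterol synthesis was selected. Scd1 and Fads2, desaturases and the 2 most abundant genes of the fatty acid synthesis list, were at 1594 TPM and 561 TPM against 587 to 1225 TPM and 247 to 392 TPM.

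Of 25 measured genes linked to fetal liver and liver cancer 4 were lower and none higher (against 2.52% lower among the 11001 genes). Of the 18 at 1 TPM or more 12 lay below all 4 comparison tumors, against 55.8% of the 11001 genes. The median log2 difference was -0.99 (-0.57 relative to the median gene). Cd44, the hyaluronan receptor, was at 1.51 TPM against 13.5, 13.8, 9.94 and 16.5 TPM. Sox4, a transcription factor of progenitor cells, was at 0.549 TPM against 7.08, 7.13, 1.803 and 5.25 TPM, and Scd2, a desaturase, was at 8.42 TPM against 40.1, 40.4, 34.1 and 30.4 TPM. The fourth was Gpx2. Pkm, the pyruvate kinase of growing and non-hepatic cells, was at 5.74 TPM against 73.5, 72.4, 17.01 and 66.2 TPM, and at 1032 TPM in tumor 1 of mouse 1. It was the only selected gene of 20 in glycolysis. Ndrg1, a stress gene of the hypoxia list, was at 11.8 TPM against 70.4, 74.6, 64.4 and 92.3 TPM and was the only one of 19 selected. None of 25 proliferation genes was selected. The most abundant of these, Pcna, the replication clamp, was at 58.0 TPM against 40.0 to 44.7 TPM, and Ccnd1, cyclin D1, at 13.7 TPM against 20.1 to 24.3 TPM. None of 18 p53 targets and cell cycle inhibitors was selected either, and 15 of the 18 lay below all 4 comparison tumors, against 55.8% of the 11001 genes. Bax and Trp53inp1, 2 mediators of p53 signaling and the most abundant of that list, were at 30.4 TPM and 16.5 TPM against 38.0 to 58.5 TPM and 21.9 to 34.6 TPM.

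**Figure D4:**
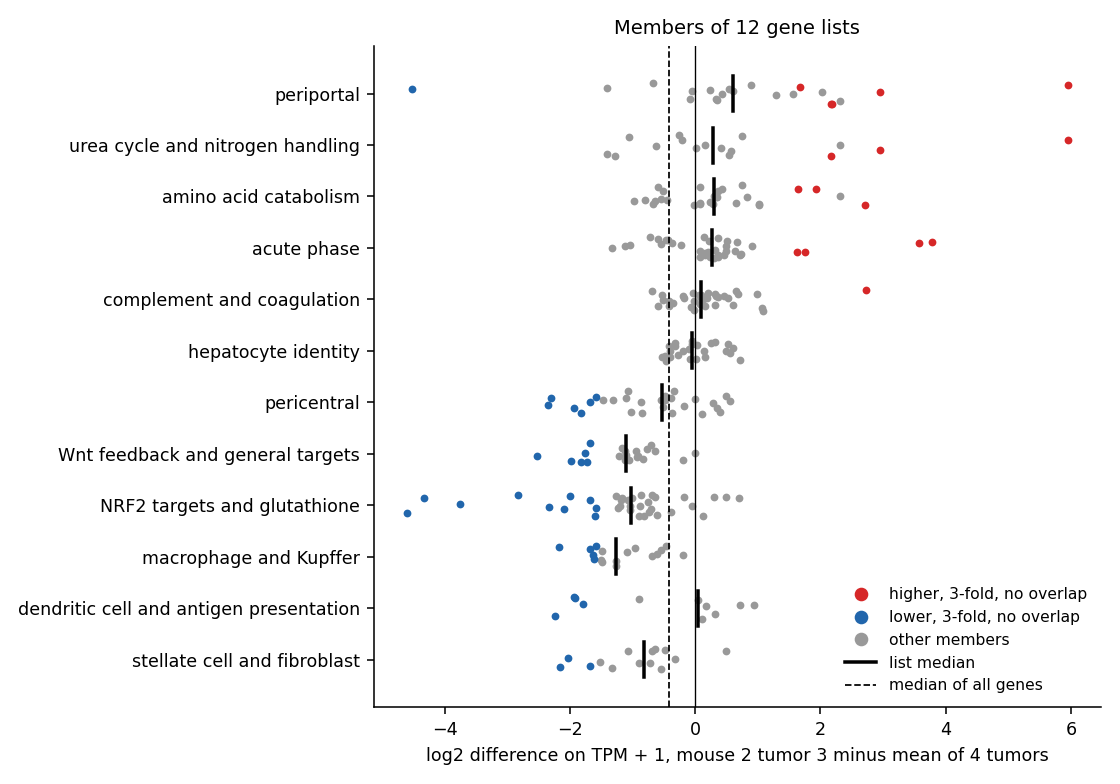
Log2 difference of each member of 12 gene lists on TPM + 1, tumor 3 of mouse 2 minus the mean of the 4 comparison tumors, 1 point a gene. Colored points passed the 3-fold limit without overlap, short bars are list medians and the dashed line is the median of all genes at -0.42; the medians run from 0.60 for the periportal list to -1.26 for the macrophage list.

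Some markers of other liver cells were lower as well, and in whole tumor pieces fewer cells of a type and less RNA per cell cannot be told apart. Of 20 macrophage and Kupffer cell genes 5 were lower and none higher (against 2.52% lower among the 11001 genes), and 14 of the 17 at 1 TPM or more lay below all 4 comparison tumors (against 55.8%), with a median log2 difference of -1.26 (-0.84 relative to the median gene). Their summed level was 306 TPM against 442 to 995 TPM. C1qb and C1qc, chains of the complement starter C1q, were at 37.8 TPM and 27.1 TPM against 153, 165, 56.8 and 132 TPM and 107, 119, 40.5 and 93.4 TPM. Csf1r, the receptor of macrophage colony-stimulating factor, was at 6.14 TPM against 32.0, 32.0, 9.85 and 19.1 TPM, and Cd5l, a secreted Kupffer cell protein, was at 29.7 TPM against 131, 138, 52.4 and 94.2 TPM. Gpnmb, a gene of lipid-laden macrophages, was at 0.646 TPM against 8.63, 9.70, 1.09 and 13.5 TPM. In these genes tumor 1 of mouse 2 came nearest. Without either comparison tumor of mouse 1, 1 of the list was lower by 3-fold, and without tumor 1 of mouse 2, 8 were. C1qb, C1qc, Csf1r and Cd5l stood between -1.54 and -1.42 without 1 of the tumors of mouse 1, and C1qb and C1qc also fell under the limit without tumor 2 of mouse 2, at -1.56 and -1.54. With the median ratio set to 0, 1 gene of the list was lower by 3-fold. Clec4f, a defining Kupffer cell gene, was detected in all 5 tumors, at 15.6 TPM against 19.9 to 49.1 TPM.

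Of 14 genes of dendritic cells and antigen presentation 4 were lower, all of class II (against 2.52% lower among the 11001 genes). For these 4, tumor 1 of mouse 2 was again the nearest. H2-Ab1, H2-Aa and H2-Eb1, chains of the class II molecules and neighbors on chromosome 17, were at 24.7 TPM, 27.3 TPM and 16.97 TPM. The comparison tumors held 143, 139, 26.8 and 111 TPM of H2-Ab1, 169.8, 167, 32.1 and 145 TPM of H2-Aa and 131, 142, 25.2 and 105 TPM of H2-Eb1. Cd74, the invariant chain, was at 76.3 TPM against 451, 485, 99.2 and 340.2 TPM. Tumor 1 of mouse 2 thus held nearly as little as the Cps1-positive tumor, and against the other tumors of mouse 2 none of the 4 was lower by 3-fold. Without either tumor of mouse 1, H2-Ab1 fell under the limit, at -1.56 and -1.57. With the median ratio set to 0, 1 of the 4 was lower by 3-fold, and with TMM factors none. The class I gene B2m, the most abundant of the 14 in that list, was at 6520.0 TPM against 3213 to 4391 TPM, above the range.

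Of 17 stellate cell and fibroblast genes 3 were lower (against 2.52% lower among the 11001 genes). The median log2 difference was -0.82 (-0.39 relative to the median gene). Ecm1, an inhibitor of TGF-β activation, was at 5.74 TPM against 41.1, 37.4, 14.3 and 31.9 TPM. Rgs5, a pericyte gene, was at 2.19 TPM against 20.1, 17.1, 5.68 and 10.2 TPM, and Colec11, a collectin of stellate cells, was at 4.97 TPM against 26.3, 25.1, 6.72 and 23.2 TPM. The log2 difference of Colec11 fell under the limit without tumor 2 or 3 of mouse 1 or tumor 2 of mouse 2, at -1.50, -1.53 and -1.56. The summed level of the list was 60.0 TPM against 65.6 to 240.3 TPM. None of 16 endothelial genes was selected (summed level 89.0 against 90.3 to 190 TPM), nor any of 14 neutrophil genes (27.9 against 13.1 to 24.0 TPM), 16 T and NK cell genes (8.76 against 5.70 to 21.0 TPM) or 10 B and plasma cell genes (17.9 against 14.2 to 36.6 TPM). The neutrophil sum was that of S100a9 and S100a8 in the main, at 13.6 TPM and 10.3 TPM against 4.90 to 10.7 TPM and 3.72 to 9.85 TPM, and the defining genes Ly6g and Ngp had 0 TPM in the Cps1-positive tumor. Among 11 measured cholangiocyte genes Sox9 was lower. The part of these other cells in the lower genes described above was not tested.

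Lists of general cell states added little. Among 34 genes of the unfolded protein and integrated stress response Slc7a11 was lower and none higher, and 22 of the 34 lay below all 4 comparison tumors, against 55.8% of the 11001 genes (median log2 difference -0.76, or -0.33 relative to the median gene). Hamp was the only selected gene of 19 in iron handling, and the 18 glucocorticoid targets had Pck1 higher and Igfbp1 lower. Among 47 genes of cytochrome P450 and conjugation Sult1d1 and Cyp3a41a were higher and Cyp1a1, Cyp2a4 and Cyp2a5 lower. None of 29 interferon response genes was selected, with Bst2, an antiviral membrane protein, at 630.3 TPM against 307 to 512 TPM and Iigp1, an immunity-related GTPase, at 115 TPM against 86.7 to 155 TPM. None of 20 clock genes was selected, with Tef and Dbp, output regulators of the clock, at 43.2 TPM and 58.8 TPM against 39.9 to 72.0 TPM and 39.0 to 70.2 TPM. None of 22 immediate early genes was either, with Jund and Junb, subunits of AP1, at 93.7 TPM and 21.1 TPM against 64.9 to 150.3 TPM and 15.9 to 21.6 TPM. Of these 6 genes Bst2 lay above the range of the comparison tumors and the other 5 within it.

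The selection held more than the named genes. Of the 68 higher genes 55 were protein coding, 12 were pseudogenes and 1 was a long noncoding RNA; 6 were at least 10-fold and 28 at least 5-fold higher, and the median fold was 4.60. Of the 277 lower genes 269 were protein coding, 21 were at least 10-fold and 87 at least 5-fold lower, and the median fold was 3.99. On the higher side 11 of the genes stayed under 5 TPM, and on the lower side 58. The gene lists covered 22 of the higher and 49 of the lower genes. Among the comparison tumors the selected genes varied more than others, with a median SD of log2 of 0.65 for the higher and 0.56 for the lower genes against 0.30 for all 11001 (n = 4). Pseudogenes share reads with their parent genes and are uncertain.

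Close to the limit, the last genes inside were Mup2 (3.05-fold) and the histone gene H4c8 (3.06-fold) on the higher side and Srxn1 (3.00-fold) and Selplg (3.00-fold) on the lower. The first outside were Tmem267 (2.99-fold) and Slc37a1 (2.97-fold), and Sox6 (2.996-fold) and Slc52a2 (2.99-fold). H4c8, at 41.4 TPM against 4.83, 5.54, 25.2 and 36.1 TPM, shows how little separates such genes, since tumor 2 of mouse 2 nearly reached it. Without either tumor of mouse 1 the log2 difference of H4c8 was 1.196 and 1.25, and that of Selplg -1.39 and -1.42, all under the limit.

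In tumor 1 of mouse 1 the selected genes lay on both sides of the comparison tumors. Of the 68 higher genes 15 lay above the 4 comparison tumors there, 17 within and 36 below. Of the 277 lower genes 93 lay above, 37 within and 147 below, against 58.3, 13.8 and 27.8% of the 11001 genes. Arg1, at 20.9 TPM, and Stap1, at 9.61 TPM, were among those above.

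Selected genes that lie next to each other were few. There were 3 runs of neighboring higher genes, with 6 genes, namely the Saa pair, Slc22a27 with Slc22a29, and Cyp2a22 with Cyp2a12. There were 19 runs of lower genes with 40 genes, among them Cbr1 with Cbr3, the 3 class II genes, Duoxa1 with Duox1, C1qb with C1qc and Cyp1a2 with Cyp1a1.

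Whole chromosomes differed by small amounts. The median log2 difference relative to all genes was 0.35 on chromosome 14 (362 genes, 79.8% above the median gene), 0.31 on chromosome 2, 0.23 on chromosome 17 and 0.19 on chromosome 1, and was lowest on chromosomes 11 and 6, at -0.17 on each. Chromosome 14 held 0 higher and 3 lower genes. Cps1 lies on chromosome 1 and Ass1, Pck1 and Upp2 on chromosome 2. They were selected at 3-fold or more, so differences larger than those medians follow from the selection. With each gene measured from the median of its chromosome, 67 genes were higher and 264 lower, and Cps1 stood at 5.77 log2 units, Ass1 at 1.86 and Pck1 at 1.88. DNA copy number was not analysed here, so the part of copy number in these medians was not tested.

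**Figure D5:**
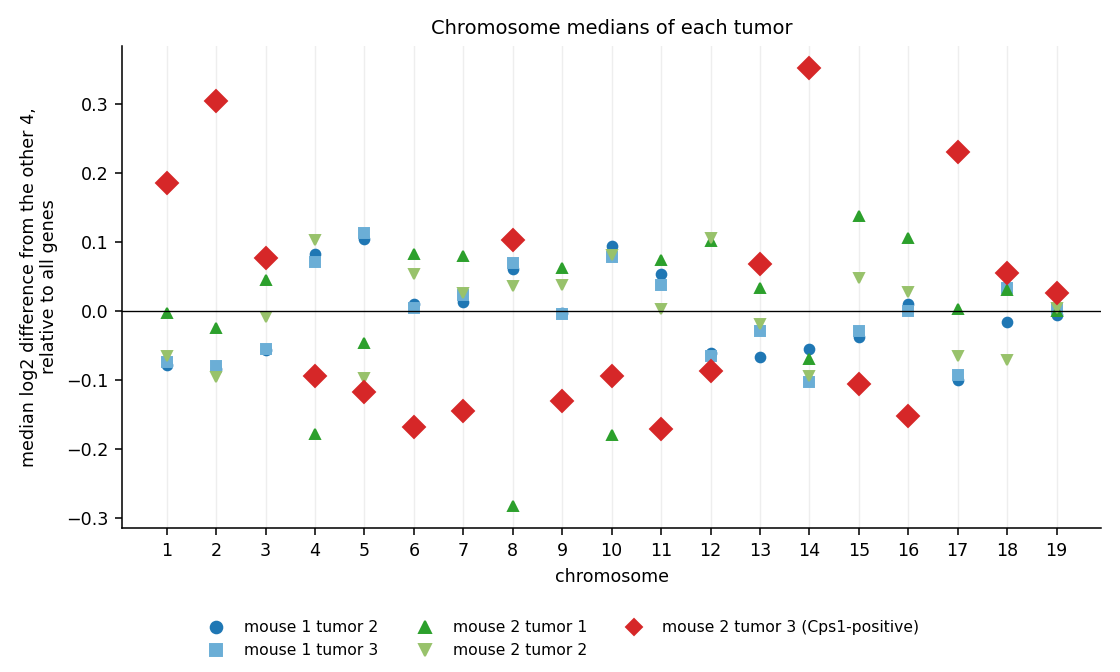
Median log2 difference of the genes of each autosome relative to all genes, for tumor 3 of mouse 2 and, measured the same way, for each comparison tumor against the other 4. The Cps1-positive tumor has the highest points on chromosomes 14 (0.35), 2 (0.31), 17 (0.23) and 1 (0.19), and tumor 1 of mouse 2 the lowest on chromosome 8 (-0.28).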

How the data were processed

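Poly(A) libraries of 6 tumors (paired reads, Illumina NovaSeq) were deposited as 1 table per tumor of Ensembl mouse transcripts in the layout of Salmon output. In these tables the authors gave TPM and estimated counts per transcript, with its other properties, length and effective length, in bases. The labels list GRCm38, BWA and Picard. The sources used here do not name the indexed transcript release. Each transcript was assigned to a gene by GENCODE vM39, which matched 114813 of 116546 transcripts and left 0.373 to 0.68% of the counts unmatched, and TPM was summed over the transcripts of a gene, giving 35683 genes, 32895 of them autosomal. Positions and promoter windows came from RefSeq (GRCm38.p6).

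The mean of log2(TPM + 1) over the comparison tumors was subtracted from the value of tumor 3 of mouse 2. A gene was selected at 3-fold without overlap. With 1 tumor on 1 side, no test was made. Counting intervals are 95% Poisson intervals, and with the floor of 3 counts they cover counting error only, since read pairs without molecular identifiers are not independent molecules. The 42 gene lists (825 genes), the members and the rule for named genes were chosen with earlier results of these data known. Named were the 5 markers Cps1, Ass1, Pck1, Saa1 and Axin2, the 15 protein-coding genes of largest fold per direction with at least 5 TPM and an established symbol, every selected member of a list, the 2 most abundant genes of a described list without one, and the 2 genes on each side of the limit. Others are said to be named after their values were seen.

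Depth was 19130532 to 27681766 estimated counts per library. Alternatives were the pseudocount, the fold, a minimum level, the comparison tumors used, scaling by TMM factors (edgeR 4.0.16, R 4.3.3) or by the median ratio, removal of mitochondrially encoded genes, and protein-coding transcripts only. Other computations used Python 3.11.15 with numpy 2.4.6, pandas 2.3.3 and scipy 1.17.1, and figures matplotlib 3.10.9.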

Additional observations from a re-analysis of the deposited data

Results flagged for a closer look

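In 7 of the 33 leading genes checked, 1 of the 4 comparison tumors stood apart from the other 3 by Dixon's ratio at the 5 percent level. Chance alone passes this level in about 1 of 20 groups of independent values. That rate need not hold here, since tumors 2 and 3 of mouse 1 were close to each other. The genes were also selected on these same values. Tumor 2 of mouse 2 was apart in 4 of the 7 genes. It held 65.7 TPM of Saa1 and 27.6 TPM of C9, above the others, and 2.77 TPM of Sult1d1 and 2.51 TPM of Agxt, below the others. Tumor 1 of mouse 2 was apart in 3, below the others each time, with 28.0 TPM of Abcc5, 11.4 TPM of Gsto1 and 2.21 TPM of Gpx2. The selection itself required the Cps1-positive tumor to lie above every comparison tumor in the 4 higher genes and below every one in the 3 lower genes.

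Tumor 1 of mouse 1 was not among the 4 comparison tumors and entered only the alternative that added it to them. Of the 68 genes higher in the Cps1-positive tumor, 15 lay above all 4 comparison tumors in tumor 1 of mouse 1. Of the 277 lower genes 93 did, against 58.3% of the 11001 genes.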

How the results depend on the processing

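No alternative turned the direction of any of the 89 selected named genes, but for many alternatives the selection fixed this outcome. A selected gene lay outside the range of all 4 comparison tumors. Fewer or averaged comparison tumors, another pseudocount or another fold could therefore not turn its direction. Of the 89 genes, 70 kept at least 3-fold with any 1 comparison tumor left out. The counts moved more, as follows, and the cause was not tested except where the alternative itself sets a looser or stricter limit. Higher genes (68) and lower genes (277) were 304 and 1010 with a pseudocount of 0.1 TPM, 32 and 72 with 5 TPM, 168 and 1099 at 2-fold, 28 and 87 at 5-fold, 32 and 95 against the nearest comparison tumor, and 130 and 180 with the median ratio set to 0. There were 123 higher genes (and 252 lower) with TMM factors, 113 higher with tumor 1 of mouse 1 added, and 565 lower against the tumors of mouse 1 alone. The share of higher genes among those selected was 19.7%, and 41.9% with the median set to 0, 32.8% with TMM factors and 30.8% with 5 TPM. Leaving out 1 comparison tumor gave 70 to 75 higher and 249 to 400 lower genes, with the 400 reached without tumor 1 of mouse 2. Lower NRF2 genes (10) were 19 at 2-fold, 5 at 5-fold, 4 against the nearest tumor, 2 with tumor 1 of mouse 1 added, 5 with TMM factors and 6 with the median set to 0, and 8 to 10 with 1 tumor left out. Lower Wnt genes (6) were 2 with 5 TPM, 12 at 2-fold, 1 at 5-fold, 1 against the nearest tumor, 1 against the other tumors of mouse 2, 11 against those of mouse 1 and 3 with the median set to 0, and 6 to 6 with 1 tumor left out. Higher acute phase genes (4) were 2 at 5-fold and 2 against the nearest tumor (3 to 4 with 1 left out). Higher periportal genes (5) were 2 at 5-fold and 3 against the nearest tumor (4 to 6 with 1 left out). Averaging the tumors of mouse 1 and measuring from the chromosome median were chosen after seeing the data. No paired analysis was possible because the result comes from no test and the tumor numbers of the mice mark no shared source. A single tumor cannot show how far tumors of its kind vary, and depth limits the genes near 0: under 3 counts, or about 0.18 TPM for Gpx2, a difference was not detectable.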
